A study of Mus musculus with 6 samples.

Results

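Tmem52b, a gene for a small membrane protein of the kidney tubule, was measured by RNA sequencing in kidneys of C57BL/6 mice aged 21 postnatal days (6 libraries). C57BL/6 is a standard inbred laboratory strain. Of the libraries, 3 were labelled acute renal failure, a rapid loss of kidney function, and 3 were labelled healthy. They are called ARF-labelled and healthy-labelled here. The labels name no agent, operation or genotype. The sample titles use treat and control, and the names of the deposited tables use mutant and WT. The file headers name archived sequencing runs, and whether those runs were made for this study, or whether the group names are exchanged, was not tested. Every difference here is therefore one between libraries so labelled. Whether each library is a different animal is not stated, so a p-value here reflects only how these libraries vary, which may be technical. Total counts per library lay between 2873370 and 6191479.

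The deposited gene names did not match the positions of the reads, so genes were named by the GRCm38 exons that lie under the counted intervals. Tmem52b is 1 of 9519 genes read in this way, through 2 of 53546 deposited rows, named Gm44243 and Gabarapl1 after other genes. It was chosen by the size of its count difference between these groups, so that difference is described here without a test. The deposited row that bears the name Tmem52b lies over exons of Olr1, a neighbouring gene. That row held 0, 0 and 1 counts in the ARF-labelled libraries and 3, 4 and 3 counts in the healthy-labelled libraries, and it was not used for Tmem52b.

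Of the genes looked at to check the labels, the injury genes Krt8, Gdf15, Clu and Cd24a ran against the names of the groups. Slc34a1 ran with them. Krt8, a keratin that damaged tubules make in larger amounts, stood at 854 ± 185 CPM (counts per 1000000 counts of the library) in the ARF-labelled libraries. It stood at 5368 ± 772 CPM in the healthy-labelled libraries (SD, n = 3 each). Gdf15, a stress-induced cytokine gene, stood at 85.4 ± 22.4 CPM in the ARF-labelled and 826 ± 79.0 CPM in the healthy-labelled libraries. Clu stood at 1352 ± 341 CPM in the ARF-labelled and 6923 ± 2286.5 CPM in the healthy-labelled libraries. Cd24a stood at 2745 ± 339 CPM in the ARF-labelled and 5508 ± 1029.6 CPM in the healthy-labelled libraries. Slc34a1, the phosphate transporter gene of the proximal tubule, is known to fall in injured tubules. It stood at 384 ± 55.2 CPM in the ARF-labelled and 2091 ± 470 CPM in the healthy-labelled libraries. Both groups held kidney transcripts, and Lrp2, the endocytic receptor of the proximal tubule, which was not called, stood at 1946 ± 635 CPM in the ARF-labelled and 1529 ± 360 CPM in the healthy-labelled libraries.

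The distal nephron is the part of the kidney tubule from the thick ascending limb of the loop of Henle to the collecting duct. It takes up sodium, calcium and magnesium and secretes potassium and acid, and potassium channels of its cells allow that transport to go on. Tmem52b transcripts are known mainly from kidney epithelium of this part. Human TMEM52B, once called C12orf59, is known for low expression in clear cell renal carcinoma. In human cancer cells its protein has been linked to the stability of E-cadherin and to the activity of the EGF receptor.

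Tmem52b lies on the plus strand of chromosome 6, from 129512555 to 129519227 in GRCm38. Its main transcript, Tmem52b-201, has 5 exons and 558 coding bases, or 186 codons before the stop codon. All counted exon bases, 1855 of 2877, were in exon 5. Row Gm44243 covered 692 bases at chr6:129517184-129517875, with 209 coding bases, the stop codon and the first 480 bases of the 3′ untranslated region. Row Gabarapl1 covered 1163 bases of that region further downstream, at chr6:129518065-129519227, up to the annotated end of the gene. Exons 1 to 4 had no counted base, so the values say nothing of splicing or of the choice of start site. No other annotated gene overlaps Tmem52b on either strand, which bears on these counts because strand was ignored. Row Gabarapl1 also took in 198 intron bases of Tmem52b and 652 bases outside the gene, where no exon of the genes used here lies.

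**Figure D1:**
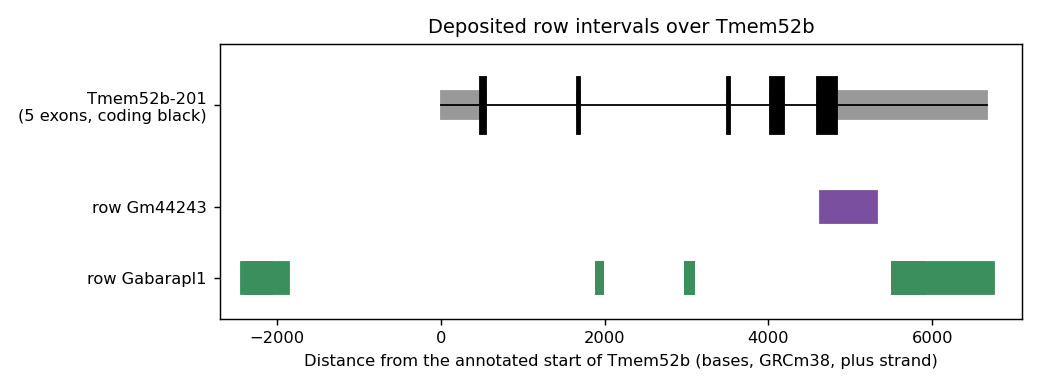
Map of Tmem52b-201 and of the deposited row intervals, by distance in bases from the annotated start (GRCm38). Grey boxes are untranslated and black boxes coding parts of exons. Row Gm44243 covers 692 bases and row Gabarapl1 1163 bases of exon 5, with 189 bases between them.

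The coding bases of Tmem52b that lie under row Gm44243 are shown as annotated. They were taken by position and no read sequence was examined, so they do not themselves tie the counts to Tmem52b. They run from chr6:129517184-129517395 on the plus strand of GRCm38, were read from the GENCODE transcript, and end in the stop codon, in capitals.
Tmem52b, end of the coding sequence: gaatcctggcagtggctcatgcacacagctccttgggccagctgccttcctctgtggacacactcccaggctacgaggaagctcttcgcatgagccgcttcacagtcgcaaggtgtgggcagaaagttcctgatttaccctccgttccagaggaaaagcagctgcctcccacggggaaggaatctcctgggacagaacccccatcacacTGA

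Tmem52b reads were many in every ARF-labelled library and few in every healthy-labelled library. The summed counts were 11298, 13879 and 21247 in the ARF-labelled libraries, against 739, 433 and 276 in the healthy-labelled libraries. Relative to library totals these were 2071, 2512 and 3432 CPM in the ARF-labelled libraries and 129, 151 and 76.0 CPM in the healthy-labelled libraries. The groups did not overlap, and the lowest ARF-labelled library stood 13.7-fold above the highest healthy-labelled one. Groups did not overlap, with the ARF-labelled libraries higher, in 39.5% of the 5246 genes tested. Within groups the highest library exceeded the lowest 1.66-fold in the ARF-labelled and 1.98-fold in the healthy-labelled libraries.

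The ratio of the group means was 22.5, and the fitted log2 fold change was 4.32 (SE 0.30), where the median of all genes tested was 0.01. In bulk kidney RNA, a change in the number of cells that make Tmem52b cannot be told apart from a change in its RNA per cell. By fitted log2 fold change Tmem52b was in place 4 of 5246 genes counted from the largest rise, and 27 other genes fell by more than it rose. The 3 genes above it, Adamts16, Zkscan16 and Panct2, had 257, 308 and 84 counts in all ARF-labelled libraries and 2, 3 and 2 counts in all healthy-labelled libraries. Tmem52b had 46424 counts in all ARF-labelled and 1448 in all healthy-labelled libraries, so its fold change rested on far more reads. Of all genes tested, 50.0% were called at a Benjamini-Hochberg threshold of 0.05 in edgeR's quasi-likelihood fit, 25.1% as higher and 24.9% as lower in the ARF-labelled libraries. Nothing is read from that background for Tmem52b, which was chosen for this contrast.

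Per length of counted exon, the level of Tmem52b was 1440 ± 374 CPM per kb in the ARF-labelled and 64.0 ± 20.7 CPM per kb in the healthy-labelled libraries (SD, n = 3 each). This placed it at 107 among the 5246 genes tested in the ARF-labelled libraries and at 2865 in the healthy-labelled libraries. The median gene stood at 87.9 CPM per kb in the ARF-labelled and at 78.1 in the healthy-labelled libraries. Tmem52b thus stood among the more abundant kidney transcripts in the ARF-labelled libraries and just below the median gene in the healthy-labelled libraries. Each gene was read over a part of its exons, so these places are approximate.

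Both rows of Tmem52b showed the difference. Row Gm44243, at the end of the coding sequence, had 6999, 8610 and 12850 counts in the ARF-labelled libraries and 442, 246 and 159 counts in the healthy-labelled libraries. Its log2 fold change was 4.41 (SE 0.29). Row Gabarapl1, in the downstream 3′ untranslated region, had 4299, 5269 and 8397 counts in the ARF-labelled libraries and 297, 187 and 117 counts in the healthy-labelled libraries. Its log2 fold change was 4.21 (SE 0.29). In both rows ARF-labelled replicate 3 was the highest and healthy-labelled replicate 3 the lowest library, as in the sum.

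The division of the reads between the rows was compared as well, from the same counts. Row Gm44243 held 61.9% (95% exact binomial interval 61.0 to 62.8), 62.0% (61.2 to 62.8) and 60.5% (59.8 to 61.1) of the Tmem52b counts in the ARF-labelled libraries. It held 59.8% (56.2 to 63.4), 56.8% (52.0 to 61.5) and 57.6% (51.5 to 63.5) in the healthy-labelled libraries. The groups did not overlap, but the interval of every healthy-labelled library reached into the range of the ARF-labelled values. The means were 61.5% ± 0.875 in the ARF-labelled and 58.1% ± 1.55 in the healthy-labelled libraries, a difference of 3.41 percentage points (SD, n = 3 each; two-sided exact permutation test, p = 0.1). That p is the smallest that 3 against 3 libraries can give, so the test could not pass 0.05. The intervals cover counting error only.

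Per exon base of Tmem52b, row Gm44243 was read 2.69 ± 0.098 times as densely as row Gabarapl1 in the ARF-labelled libraries. In the healthy-labelled libraries it was read 2.33 ± 0.151 times as densely (SD, n = 3 each). The count of row Gabarapl1 includes any reads over its 198 intron bases and 652 bases outside the gene. Those bases were left out of its length here. The 1832 bases after the stop codon hold AATAAA or ATTAAA, the letters of common polyadenylation signals, at 4 places on the plus strand, all under row Gabarapl1. The last of these starts 27 bases before the annotated end and the first 835 bases after the stop codon. Reads of a shorter and a longer 3′ end could not be separated in these counts.

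**Figure D2:**
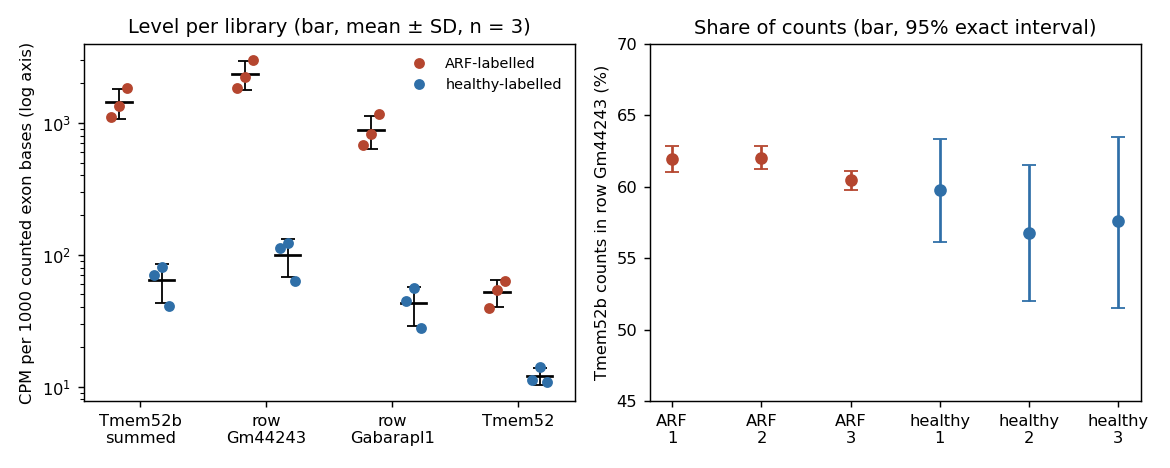
Left, level of Tmem52b, of each of its rows and of Tmem52 per library, in CPM per kb of counted exon on a log axis, with mean ± SD (n = 3). Right, percent of Tmem52b counts in row Gm44243 per library with 95% exact binomial intervals. The ARF-labelled libraries lie above the healthy-labelled ones for every item on the left and between 60.5% and 62.0% on the right.

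The paralog Tmem52, another small membrane protein gene, was not used to choose Tmem52b. It lies on chromosome 4, where the row named Gabrd covers 687 of its 968 exon bases. Tmem52 had 147, 204 and 271 counts in the ARF-labelled libraries and 44, 28 and 27 counts in the healthy-labelled libraries. These were 26.9, 36.9 and 43.8 CPM in the ARF-labelled libraries against 7.71, 9.74 and 7.44 CPM in the healthy-labelled libraries, with no overlap. It rose with a log2 fold change of 1.95 (SE 0.22, adjusted p = 0.000194, edgeR's quasi-likelihood test) and was called under all 13 alternatives, with log2 fold changes of 1.81 to 2.14. Per kb of counted exon Tmem52 stood at 52.2 ± 12.3 CPM in the ARF-labelled and 12.1 ± 1.84 CPM in the healthy-labelled libraries. Tmem52b stood far above it in the ARF-labelled libraries, at 1440 ± 374 CPM per kb.

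Potassium channel genes of the tubule were among the genes whose profile over the 6 libraries was closest to that of Tmem52b. Closeness was measured as the root mean square difference of mean-centred log2 CPM. The 8 closest genes, from 0.35 to 0.49 on that log2 scale, were Zkscan16, Fanca, Kcnj1, Kcnj10, Gm13111, Adamts16, Atp10b and Kcne2. Their Pearson r with Tmem52b over these 6 libraries lay between 0.98 and 1.00. The 6 points fall into 2 groups, and 10.4% of all genes tested had an r of at least 0.95, so r says little beyond the group difference. With Pearson r as the measure, 1 of these 8 genes, Kcnj10, was again among the closest 8, and with a prior count of 0.5 it was 5 of 8.

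Kcnj1 encodes ROMK, the potassium channel through which the thick ascending limb recycles and the collecting duct secretes potassium. It stood at 184, 194 and 197 CPM in the ARF-labelled libraries and at 11.6, 18.4 and 8.81 CPM in the healthy-labelled libraries. Its log2 fold change was 3.75 (SE 0.22), read through 67 exon bases. Kcnj10 encodes Kir4.1, the basolateral potassium channel that sets the membrane voltage of the distal convoluted tubule. It stood at 264, 329 and 405 CPM in the ARF-labelled libraries and at 27.3, 24.7 and 17.6 CPM in the healthy-labelled libraries.

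The log2 fold change of Kcnj10 was 3.66 (SE 0.22). As with Tmem52b, ARF-labelled replicate 3 was its highest and healthy-labelled replicate 3 its lowest library. Kcne2, a small accessory subunit of potassium channels, stood at 74.97, 79.6 and 93.7 CPM in the ARF-labelled libraries and at 4.55, 10.1 and 4.41 CPM in the healthy-labelled libraries, read through 77 exon bases. Its groups did not overlap either. Fanca, whose product helps to mend crosslinked DNA, had 128 ± 16.5 CPM in the ARF-labelled and 8.08 ± 1.51 CPM in the healthy-labelled libraries (SD, n = 3 each). Atp10b, a phospholipid-transporting ATPase gene, stood at 29.1 ± 2.12 CPM in the ARF-labelled and 1.52 ± 1.04 CPM in the healthy-labelled libraries. Gm13111 is an antisense transcript whose reads cannot be told from those of its partner. These genes were selected for likeness to Tmem52b, so their direction is no separate evidence.

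**Figure D3:**
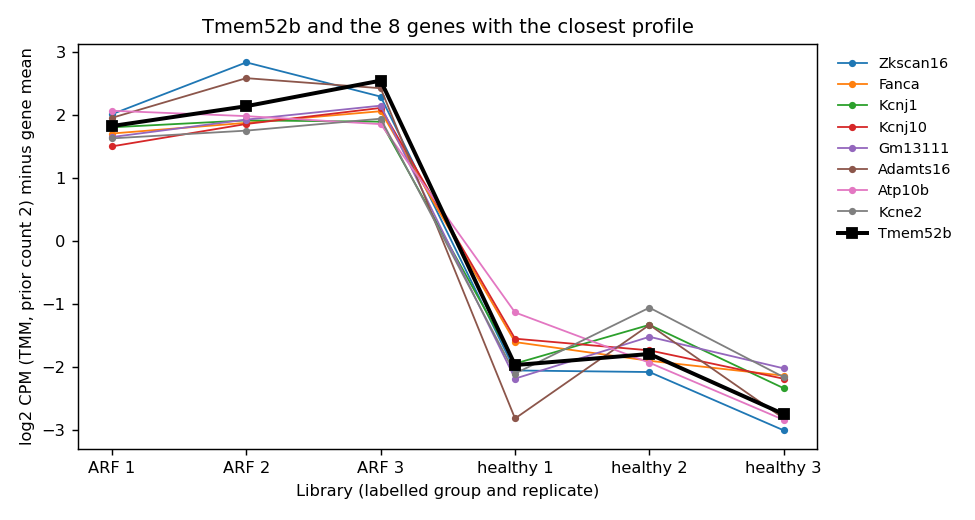
Mean-centred log2 CPM (TMM scaling, prior count 2) of Tmem52b (black) and of the 8 closest genes in each library, with lines joining the points of a gene. Tmem52b lies between 1.82 and 2.55 in the ARF-labelled and between -2.75 and -1.79 in the healthy-labelled libraries. The other genes, chosen for likeness, share the difference between the groups. Not all of them share the order of libraries within the groups. Kcne2 has the same order as Tmem52b, but Atp10b is lowest of the ARF-labelled libraries in replicate 3, where Tmem52b is highest.

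Genes of other distal segments give the setting for Tmem52b. Counts of called genes below come from the same edgeR fit and threshold, and all are to be set against 25.1% of all genes called higher and 24.9% called lower. Of 13 principal cell genes of the collecting duct 6 could be read by position, 5 passed the filter on low counts and all 5 rose, with a median log2 fold change of 1.59. They were Kcne1 (3.18, SE 0.25, adjusted p = 3.50e-05), another potassium channel subunit gene, the sodium channel subunits Scnn1g, Scnn1b and Scnn1a, and the water channel Aqp3. Kcne1 stood at 36.7, 55.6 and 58.8 CPM in the ARF-labelled libraries and at 4.90, 3.83 and 5.78 CPM in the healthy-labelled libraries.

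All 9 intercalated cell genes that were read and tested, of 15 listed, rose, with a median log2 fold change of 1.65. Atp6v1b1, a proton pump subunit, had 3.31 (SE 0.71) from 3.81 ± 0.800 CPM in the ARF-labelled and 0.234 ± 0.404 CPM in the healthy-labelled libraries. Without healthy-labelled replicate 1 its fitted value was 7.14. Atp6v0a4, with the smallest rise (0.44), missed the threshold when ARF-labelled replicate 3 or healthy-labelled replicate 2 or 3 was left out (edgeR adjusted p 0.0712 to 0.0914).

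Segments further upstream were mixed. Of 15 loop of Henle genes 5 were read and 4 tested: Kcnj1 rose, and Ptger3, a prostaglandin receptor, fell (-0.61, SE 0.20, adjusted p = 0.0294). Ptger3 missed the threshold when ARF-labelled replicate 2 or 3 or healthy-labelled replicate 1 or 2 was left out (adjusted p 0.0656 to 0.0906), with scaling by library total (0.0969) and with the replicate block (0.0630). Egf, a growth factor precursor of the thick ascending limb and distal convoluted tubule, stood at 491 ± 135 CPM in the ARF-labelled and 484 ± 82.2 CPM in the healthy-labelled libraries (edgeR adjusted p = 0.561).

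Of 11 distal convoluted tubule genes 3 were tested. Kcnj10 rose, and Trpm6, the magnesium channel of that segment, fell (-1.74, SE 0.31, adjusted p = 0.00193). Of 8 connecting tubule genes 4 were tested, and Calb1, a calcium-binding protein gene, rose (1.98, SE 0.35, adjusted p = 0.00194). The calcium channel Trpv5 (-1.58) and the calcium pumps Atp2b1 (-0.98) and Atp2b4 (-0.86) fell. The value of Trpv5 was -0.97 without healthy-labelled replicate 1. Cnnm2, a magnesium transport gene of the distal convoluted tubule, had a log2 fold change of 0.08 and was not called.

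**Figure D4:**
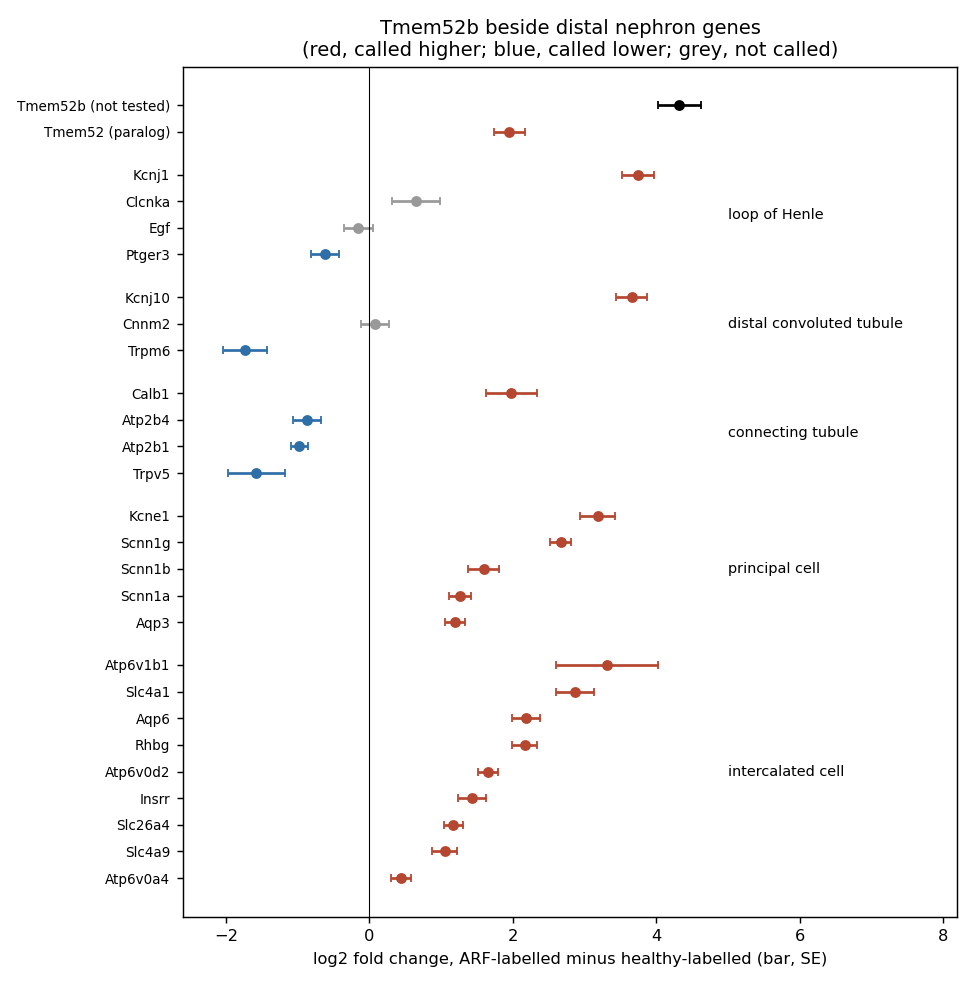
Log2 fold change, ARF-labelled minus healthy-labelled, with SE, of Tmem52b (black, not tested), its paralog and the genes of 5 distal segment and cell type lists that passed the filter. Red marks genes called higher, blue genes called lower and grey genes not called at an adjusted p of 0.05 (edgeR). All 5 principal cell and all 9 intercalated cell genes lie right of 0, and Tmem52b lies at 4.32.

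Of 11 genes shared by distal epithelia 2 were tested: Mal, a membrane sorting protein gene, which was higher (0.87, SE 0.16), and Cdh1, which was lower (-1.16, SE 0.14) and is also a member of the E-cadherin list.

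Set against the summed CPM of a segment's list in the same library, Tmem52b stood higher in the ARF-labelled libraries throughout. Its log2 ratio to the 9 intercalated cell genes was -1.33, -1.33 and -0.74 in the ARF-labelled libraries and -3.47, -3.40 and -4.07 in the healthy-labelled libraries. Its mean log2 ratio to the principal cell genes was -1.97 in the ARF-labelled and -5.02 in the healthy-labelled libraries. Its mean log2 ratio to the distal convoluted tubule genes was 2.86 in the ARF-labelled and 0.36 in the healthy-labelled libraries, a difference of 2.49, the smallest of these. The sums are led by abundant members such as Aqp3. Kcnj10, itself selected for likeness to Tmem52b, held 264, 329 and 405 of the 306, 354 and 434 CPM of the distal convoluted tubule list in the ARF-labelled libraries. No test was made because Tmem52b was chosen for its difference, so its higher ratios are no separate evidence.

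Of 15 transcription factor genes of the distal nephron and its development 5 were tested, and 3 rose. Tfap2b, a factor of the distal tubule, stood at 47.5, 49.95 and 58.5 CPM in the ARF-labelled libraries and at 13.1, 16.01 and 11.3 CPM in the healthy-labelled libraries. Its log2 fold change was 1.78 (SE 0.16, adjusted p = 6.63e-05, edgeR). Grhl2, a regulator of epithelial junction genes, had 0.45 (SE 0.12, adjusted p = 0.0144) and missed the threshold when healthy-labelled replicate 2 or 3 was left out (0.0567 and 0.0746). Pou3f3, a factor of the loop of Henle and distal tubule, had 2.57 (SE 0.71, adjusted p = 0.0161) and missed it when healthy-labelled replicate 1 was left out (0.0678). Its value was 3.94 without healthy-labelled replicate 2. Pou3f3 had few reads, with 17, 21 and 33 counts in the ARF-labelled libraries and 2, 5 and 0 counts in the healthy-labelled libraries.

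Of 17 genes of E-cadherin and the EGF receptor, to which human TMEM52B has been tied in cancer cells, 7 were tested, 4 fell and 0 rose, with a median log2 fold change of -0.46. Cdh1, which encodes E-cadherin, stood at 4136, 4257 and 4231 CPM in the ARF-labelled libraries and at 9655, 8169 and 7244 CPM in the healthy-labelled libraries. It fell by 1.16 on the log2 scale (SE 0.14, adjusted p = 0.000270, edgeR). Egfr, the EGF receptor gene, fell by 0.81 on the log2 scale (SE 0.13). The adaptor gene Shc1 fell by 0.78 (SE 0.13), and Cbl, which encodes a ubiquitin ligase of activated receptors, fell by 0.46 (SE 0.09). The groups did not overlap in any of these 4 genes. The share of all genes that were lower without overlap was not worked out, so nothing is read from this. Ctnnd1, which encodes p120 catenin, had -0.13 and Erbb3, a related receptor, had 0.00, and neither was called (edgeR adjusted p = 0.362 and 0.982). These are RNA levels in whole kidney and say nothing of protein stability.

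Markers of other cell types differed between the groups as well. Of 12 proximal tubule genes tested 8 fell and 1 rose, with a median log2 fold change of -1.65. The summed level of that list was 4242 to 5685 CPM in the ARF-labelled and 8547 to 13583 CPM in the healthy-labelled libraries. The endothelial list summed to 145 to 164 CPM in the ARF-labelled and 179 to 346 CPM in the healthy-labelled libraries, with 3 of 5 genes lower. The macrophage list summed to 30.7 to 35.3 CPM in the ARF-labelled and 48.7 to 99.2 CPM in the healthy-labelled libraries, with 5 of 6 genes lower, but 3 of 6 when ARF-labelled replicate 2 or healthy-labelled replicate 3 was left out. The neutrophil list, 2 of 2 genes lower, summed to 3.08 to 6.95 CPM in the ARF-labelled and 46.6 to 155 CPM in the healthy-labelled libraries.

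The erythroid list, also 2 of 2 tested genes lower, summed to 28.8 to 79.1 CPM in the ARF-labelled and 163 to 789 CPM in the healthy-labelled libraries, with Hbb-bt at 0 in all of them. Urothelial genes summed to 237 to 293 CPM in the ARF-labelled and 70.5 to 210 CPM in the healthy-labelled libraries, with 1 of 2 genes higher. The stromal list summed to 306 to 520 CPM in the ARF-labelled and 316 to 1905 CPM in the healthy-labelled libraries, with 1 of 6 genes higher and 2 lower. Without healthy-labelled replicate 1, 5 stromal genes were lower, and 1 was lower without ARF-labelled replicate 1 or 2 or healthy-labelled replicate 2 or 3. The 1 higher stromal gene was not called without ARF-labelled replicate 1 or healthy-labelled replicate 3. The highest stromal sum was that of healthy-labelled replicate 2, with Col1a1 at 848 CPM and Col1a2 at 603 CPM, both collagen genes. Of 2 podocyte genes 1 was lower and 1, Thsd7a, was higher (0.49, SE 0.17, edgeR adjusted p = 0.0433). Thsd7a missed the threshold when ARF-labelled replicate 1 or 3 or healthy-labelled replicate 1 or 3 was left out (0.0998 to 0.133). Natural killer and T cell genes, 2 of 11 read and 0 tested, summed to 0.183 to 0.362 CPM in the ARF-labelled and 0 to 1.39 CPM in the healthy-labelled libraries. The part of these cell types in the difference of Tmem52b was not tested.

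Tmem52b lies in a region of immune receptor genes, the natural killer gene complex, and the neighbours that could be read had few counts. Within 500 kb, 48 other genes are annotated, 11 were read by position and 1, Olr1, passed the filter. The highest total over all 6 libraries among them was 47 counts, where Tmem52b had 46424 in the ARF-labelled libraries alone. Olr1, a scavenger receptor gene on the minus strand, starts 5390 bases before the start of Tmem52b and runs away from it. Olr1 had 0, 1 and 14 counts in the ARF-labelled libraries and 11, 12 and 9 counts in the healthy-labelled libraries. It was not called (log2 fold change -1.82, SE 0.89, edgeR adjusted p = 0.122), but it was called lower without ARF-labelled replicate 3 (-4.68, adjusted p = 0.00475). Klrd1, a receptor subunit of natural killer cells, had 0, 2 and 1 counts in the ARF-labelled libraries and 3, 4 and 0 counts in the healthy-labelled libraries. The dendritic cell receptor Clec12a had 8 counts in all ARF-labelled and 0 in all healthy-labelled libraries and was below the filter.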

How the data were processed

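Raw counts, 1 table a library, were deposited. Per the file headers the authors made these counts with featureCounts 2.0.1 from read pairs with both ends aligned and no chimeric pairs, added up over the exons of a gene name, with strand ignored. Bowtie 0.12.2 and mm9 are named in the submitters' processing notes, but the counts fall on GRCm38 exons, and which aligner made the alignments that were counted is not known here.

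Row intervals were intersected (bedtools 2.31.1) with exons of GENCODE M21 basic protein-coding and long non-coding genes. A row went to a gene when a share of 0.9 or more of the exon bases under it, and no fewer than 25 bases, belonged to that gene. This gave 9519 genes from 12401 rows with 63.0% of the counts. Genes were tested by quasi-likelihood in edgeR 4.0.16 (R 4.3.3) with TMM scaling of totals taken over every deposited row, genes kept by filterByExpr, and a model of group alone, two-sided, with Benjamini-Hochberg adjustment over all genes tested and a threshold of 0.05. Log2 fold changes are ARF-labelled minus healthy-labelled, and the SE is their size over the square root of F. The test was checked on simulated counts. The alternatives were DESeq2 1.42.0, other scalings, no filter, a replicate block, stricter naming of genes and leaving out each library.

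Tmem52b and the lists were chosen with earlier results of these data known. Named genes were Tmem52b, its paralog, the 8 closest profiles, up to 4 called genes with the largest change per list, and genes within 500 kb. Further list members are named where a count or comparison turned on them, after their values were seen. Replicates of a group differed by more than counting noise (chi-square per degree of freedom of 10.6 or more). Some listed genes are not reported here by name.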

Additional observations from a re-analysis of the deposited data

How the results depend on the processing

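The log2 fold change of Tmem52b lay between 4.05 and 4.49 under all 13 alternatives, that of row Gm44243 between 4.15 and 4.57 and that of row Gabarapl1 between 3.97 and 4.42 under 11 each. All these shifts were smaller than the spread between replicates. The difference in the share of row Gm44243 lay between 2.78 and 4.28 percentage points when 1 library was left out, where the smallest possible p was 0.2. Called genes numbered 2624, and 2117 to 2762 under the alternatives. Scaling by library total put the median gene at a log2 fold change of 0.19 and the share of calls that were higher to 63.3%, against 50.3% with TMM. The number of called list genes was 57, and 50 to 59 under the alternatives. The number of called neighbours was 0, and 0 to 1 when a library was left out. Of the 8 genes closest to Tmem52b, 1 was shared when Pearson r was the measure and 5 with a prior count of 0.5, and the cause was not tested. Libraries with the same replicate number were not more alike than others. The correlation of deviations was -0.07, -0.22 and -0.29 for numbers 1, 2 and 3, against -0.06 to 0.24 for unlike numbers. The deviations were taken within groups of 3, so these values cannot settle whether libraries were paired. With the replicate block, 2288 genes were called, Tmem52b had 4.33, and Ptger3 and Thsd7a, a podocyte gene, lost their calls. Counting error limits the healthy-labelled shares, which rest on 276 to 739 counts.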
